A study of Mus musculus with 6 samples.

Results

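Blood coagulation genes were followed in purified mouse liver sinusoidal endothelial cells, the thin, fenestrated lining of the liver's capillaries. The set was a named list of 35 genes for coagulation, its inhibitors and fibrinolysis, taken by symbol from a table of 48897 genes. All 35 were found once each, and all 35 passed the filter on low counts. The list was divided by the main source of each protein in textbook knowledge: 7 genes of endothelium, 10 of several cell types and 18 of hepatocytes. The PHx group held 3 libraries from C57BL/6 mice aged 7 to 8 weeks, on day 14 after partial hepatectomy, the surgical removal of part of the liver. The Sham group held 3 libraries from mice of the same strain and age on day 14 after a sham operation. In both groups cells were purified with anti-CD146 magnetic beads, and no transgene or other treatment was given in the labels. The libraries carry the numbers 1, 3 and 4 in each group, and values below run in that order.

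Coagulation is a chain of plasma proteases. Tissue factor starts it, factors VIII and V speed it as cofactors, and thrombin at its end turns fibrinogen into fibrin. Most of its zymogens are secreted by hepatocytes after vitamin K dependent carboxylation, while endothelium supplies factor VIII, von Willebrand factor and the surface proteins that keep blood fluid, such as thrombomodulin and tissue factor pathway inhibitor. Fibrin is removed by plasmin, which is released from plasminogen by the activators encoded by Plat and Plau. Liver sinusoidal cells are known as the main source of factor VIII in mice.

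Summed counts lay between 48488625 and 49611423 in PHx libraries and between 38765116 and 51888481 in Sham libraries. Markers of the labelled cell type were abundant, with the endothelial adhesion molecule Pecam1 between 1146 and 1386 CPM (counts scaled to a common library size with edgeR's TMM factors) in PHx and between 1446 and 1500 CPM in Sham. The sinusoidal receptor Stab2 stood between 3460 and 5133 CPM in PHx and between 5627 and 6492 CPM in Sham. Other cell types were present too. Summed over 10 stellate cell and fibroblast markers, PHx libraries held 5331, 6887 and 6725 CPM and Sham libraries 2317, 1937 and 1791 CPM, with 7 of the 10 genes called higher. Summed over 8 neutrophil markers, the values were 588, 24.3 and 3896 CPM in PHx and 289, 155 and 25.4 CPM in Sham, so PHx 4 stood apart. No gene of these lists was at 0 in every library. The labels do not say that libraries came from separate animals, so p-values measure only the spread between these samples. In bulk RNA, fewer cells of a type and less RNA per cell cannot be told apart.

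Upstream sequences are shown for Serpine2, which was higher in PHx, and for the fibrinogen chain genes Fga, Fgb and Fgg, which varied together across libraries. Each run is the 250 bases before the RefSeq start (GRCm38.p6), 5′ to 3′ on the gene's strand. Capitals in Serpine2 mark CAGGAAG, a core letter string of ETS factors. In Fga and Fgb they mark GTTAAT on the reverse strand (printed as ATTAAC), part of the site of the hepatocyte factor HNF1. GATAAG, the core of GATA factors, is marked in Fgg on the printed strand, and in Fga on the reverse strand (printed as CTTATC).
Serpine2 (chr1:79858666-79858915, minus strand): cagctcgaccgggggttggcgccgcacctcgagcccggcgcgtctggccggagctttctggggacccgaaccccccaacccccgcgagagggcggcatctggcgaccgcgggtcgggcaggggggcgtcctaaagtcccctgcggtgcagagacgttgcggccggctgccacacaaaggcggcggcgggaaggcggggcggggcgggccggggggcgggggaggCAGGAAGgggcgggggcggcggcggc
Fga (chr3:83025903-83026152, plus strand): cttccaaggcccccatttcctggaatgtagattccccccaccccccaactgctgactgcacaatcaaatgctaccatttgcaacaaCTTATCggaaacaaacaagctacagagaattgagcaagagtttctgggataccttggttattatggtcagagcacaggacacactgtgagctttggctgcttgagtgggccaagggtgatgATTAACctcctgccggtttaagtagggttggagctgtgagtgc
Fgb (chr3:83049864-83050113, minus strand): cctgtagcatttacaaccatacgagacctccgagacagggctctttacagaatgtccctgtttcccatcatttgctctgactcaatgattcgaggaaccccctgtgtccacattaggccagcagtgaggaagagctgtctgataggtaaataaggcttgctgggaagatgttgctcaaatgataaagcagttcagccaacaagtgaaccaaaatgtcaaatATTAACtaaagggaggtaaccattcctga
Fgg (chr3:83007474-83007723, plus strand): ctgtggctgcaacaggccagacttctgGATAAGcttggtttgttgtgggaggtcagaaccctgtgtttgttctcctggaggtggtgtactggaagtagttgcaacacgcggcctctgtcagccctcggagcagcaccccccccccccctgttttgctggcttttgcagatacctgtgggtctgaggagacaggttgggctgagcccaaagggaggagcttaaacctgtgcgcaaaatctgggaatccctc

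RefSeq windows of 300 bases, which add 50 bases after the start, matched 26 of the 35 genes. Those without a window were F2rl1, Kng1, Plat, Plau, Plg, Proc, Thbd, Thbs1 and Vwf. Tfpi and F13a1 had 2 windows and Tfpi2 had 3. A gene was counted if any of its windows held a searched string, while shares over all windows are per window. GTTAAT on either strand, a string added after the windows were seen, occurred in 4 of 15 hepatocyte-derived genes (F2, F13b, Fga and Fgb), in 0 of 4 endothelial genes and in 1 of 7 genes of several cell types (Tfpi2), against 7.1% of all 32851 windows. The full HNF1 palindrome was in none of the 26 genes and in 0.00913% of windows. GATAAG was found in 5 of the 26 genes and 7.44% of windows, CAGGAAG in 4 of the 26 and 13.3% of windows, and CACCC, the core of KLF factors, in 17 of the 26 and 57.5% of windows. The GC content of the Serpine2 window was 77.7%, the highest of the 26, against a median of 52.7% over all windows and 49% over the 15 hepatocyte-derived genes. Letter matches are descriptions and not evidence of binding.

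Of the 35 genes, 2 (5.71%) were called higher in PHx, Serpine2 and Plat, and 0 were called lower (edgeR's quasi-likelihood test, Benjamini-Hochberg adjusted p below 0.05). Over all 19033 genes tested, 0.846% were called higher and 0.0158% lower. Before adjustment, 6 of the 35 genes were higher and 2 lower at p below 0.05, where 7.93% of all genes were higher and 4.73% lower. DESeq2 called 3 higher (Serpine2, Plat and Thbs1) and 1 lower (Plau), where it called 4.02% and 0.703% of all genes. Every PHx library lay above every Sham library for 5 genes (14.3%), and below for 4 (11.4%). Over all tested genes those shares were 10.6% and 9.96%, so by this measure of non-overlap alone the members were near the background. The median log2 fold change of the 35 genes was -0.21, with 15 positive and 20 negative values, and that of all tested genes was 0.03. As a class the hepatocyte-derived genes had a median of -0.45, the endothelial genes 0.13 and those of several cell types 0.56.

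**Figure D1:**
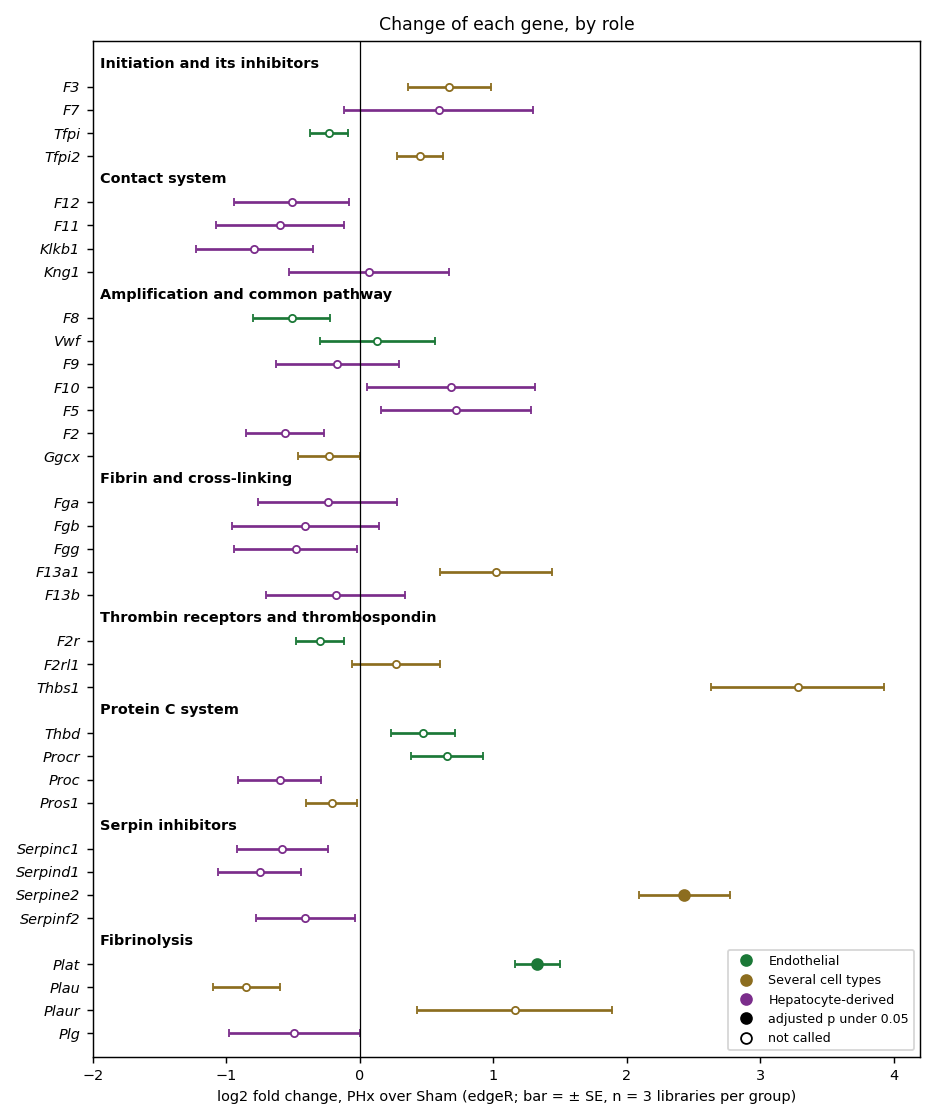
Log2 fold change of PHx over Sham for each of the 35 genes, grouped by role and coloured by class, with bars of ± 1 SE from edgeR's fit to 3 libraries per group. The filled points are Serpine2 at 2.43 and Plat at 1.33, Thbs1 has the largest value at 3.28 with a wide bar, and 14 of the 18 hepatocyte-derived genes lie below 0.

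Levels of different genes are set side by side per length, as deposited RPKM (reads per kilobase of gene length, scaled by library size). In Sham libraries 6 genes exceeded 50 RPKM. F2r, the thrombin receptor of the protease-activated family, came first at 212 ± 3.54 RPKM (SD, n = 3). F8 (146 ± 11.6), Pros1 (143 ± 7.15), Thbd (140 ± 35.5) and Vwf (122 ± 52.3) followed, and these neighbours did not differ beyond their spread. Tfpi had the lowest mean of the 6 at 71.1 ± 1.53 RPKM, but in Sham 4 Vwf (70.8 RPKM) was below Tfpi (71.8 RPKM). The same 6 genes and Thbs1 exceeded 50 RPKM on average in PHx, but Thbs1 (30.8, 39.2 and 120 RPKM) did so only in PHx 4. Thbd at 198 ± 43.4 and F2r at 176 ± 41.8 RPKM were within each other's spread. The 7 endothelial genes held 62.2% ± 7.38 of the summed RPKM of the 35 genes in PHx and 63.1% ± 2.21 in Sham (SD, n = 3), and the 18 hepatocyte-derived genes 12.3% ± 6.14 in PHx and 16.2% ± 0.580 in Sham. The precision of 7 genes is limited by few reads, under 5 CPM on average in both groups, namely F7, F9, F11, Klkb1, F13a1, F13b and F2rl1.

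**Figure D2:**
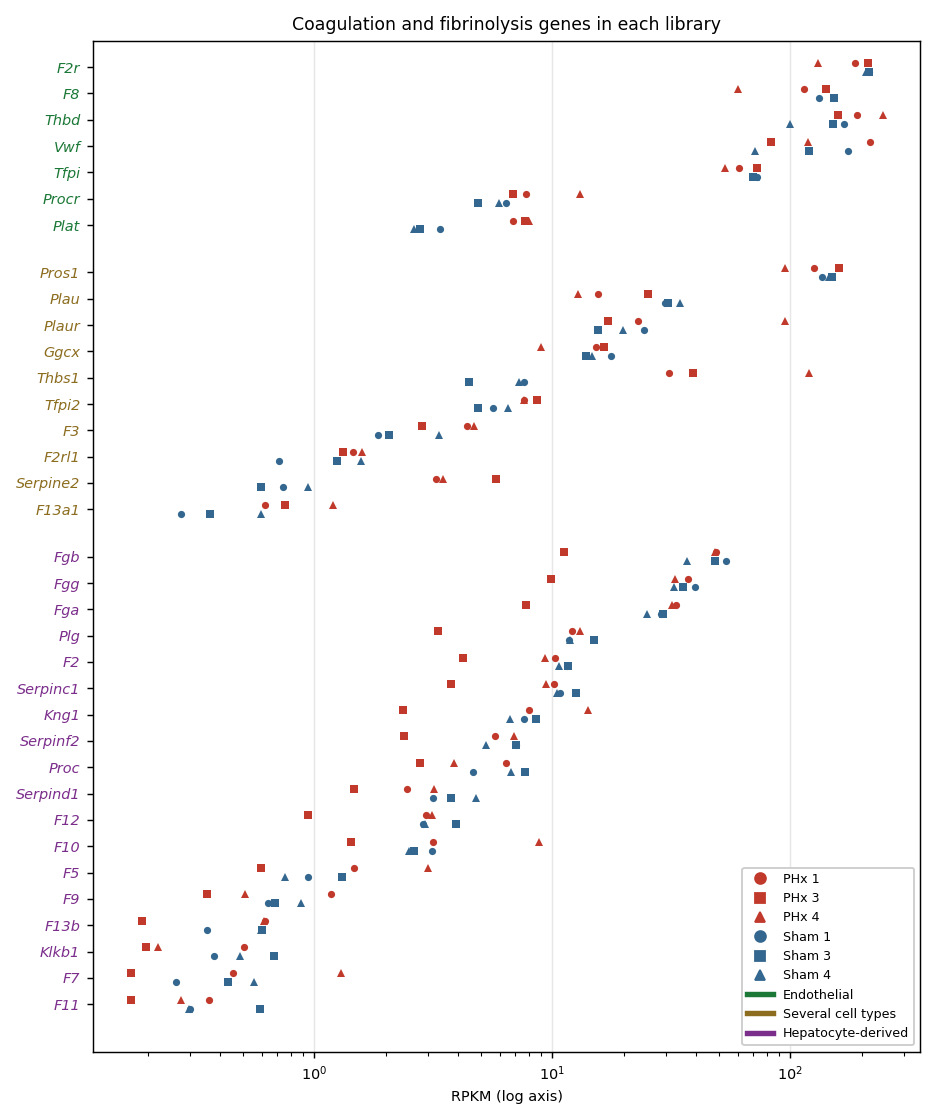
Level of each gene in each library in RPKM on a log axis, with PHx libraries in red above Sham libraries in blue and gene names coloured by class. F8, Vwf, F2r, Thbd, Tfpi and Pros1 stand far to the right, and the PHx 3 square is the lowest of the 6 points in all 18 hepatocyte-derived genes.

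Serpine2 encodes protease nexin, a cell-bound serpin that inhibits thrombin, urokinase and tissue-type plasminogen activator. The gene lies on chromosome 1 (79794317 to 79858665, mm10). Its level was 6.65, 12.8 and 7.60 CPM in PHx libraries and 1.64, 1.30 and 2.07 CPM in Sham libraries. All PHx libraries were above all Sham libraries, with PHx 3 the highest. The log2 fold change was 2.43 ± 0.34 (SE, n = 3 per group), a 5.39-fold rise with an edgeR adjusted p of 0.0271. The call was lost when PHx 3, Sham 1, Sham 3 or Sham 4 was left out (edgeR adjusted p = 0.0546, 0.113, 0.163 and 0.137), while the log2 fold change stayed between 2.08 and 2.60. With limma-voom the adjusted p was 0.0581.

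The other serpins of the list are hepatocyte products and had negative log2 fold changes. Serpinc1 encodes antithrombin, the main plasma inhibitor of thrombin and factor Xa, and had 21.1, 8.40 and 21.1 CPM in PHx against 24.4, 27.9 and 23.3 CPM in Sham. Serpind1, for heparin cofactor II, had 5.12, 3.32 and 7.17 CPM in PHx against 7.18, 8.33 and 10.7 CPM in Sham. In both genes the PHx libraries lay below the Sham libraries, but neither passed (edgeR adjusted p = 0.516 and 0.381). Serpind1 lies within Pi4ka on the opposite strand, which held 1770% of its mean count, and the use of strand in counting was not given. Serpinf2, the plasma inhibitor of plasmin, had a log2 fold change of -0.41 ± 0.37.

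Plat encodes tissue-type plasminogen activator, which endothelium releases to start fibrinolysis on fibrin. Its position is chromosome 8, 22757722 to 22782848. PHx libraries held 16.5, 19.99 and 20.7 CPM and Sham libraries 8.85, 7.11 and 6.77 CPM, with no overlap and little spread within either group. The log2 fold change of 1.33 ± 0.17 is a 2.51-fold rise, with an edgeR adjusted p of 0.0221. Without PHx 3, Sham 1, Sham 3 or Sham 4 the edgeR adjusted p was 0.0566, 0.0717, 0.164 and 0.147, at log2 fold changes between 1.22 and 1.43. Without both libraries numbered 4, an alternative chosen after the data were seen, neither Plat (edgeR adjusted p = 0.165) nor Serpine2 (0.126) was called. With the mean log2 CPM of the hepatocyte markers as a covariate the log2 fold changes were 1.20 for Plat and 2.00 for Serpine2, and neither was called (edgeR adjusted p = 0.105 and 0.0923). The summed markers of stellate cells and fibroblasts given above were also higher in all PHx libraries. So were 6 mesothelial markers, which summed to 173, 136 and 94.4 CPM in PHx and 56.8, 55.8 and 68.4 CPM in Sham with 2 of 6 called higher. Within PHx the mesothelial sum was lowest in PHx 4, where Plat was highest. The part of either marker list in these results was not tested.

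Plau, which encodes urokinase, the activator used in cell-surface and tissue proteolysis, had 37.0, 64.7 and 32.7 CPM in PHx against 77.0, 77.1 and 87.8 CPM in Sham. All PHx libraries were below all Sham libraries, and PHx 3 was nearest to them. Its log2 fold change of -0.85 ± 0.25 did not pass (edgeR adjusted p = 0.253, DESeq2 adjusted p = 0.0395), and without PHx 3 the value was -1.22 with an edgeR adjusted p of 0.0242. No other fit with 1 library left out gave an edgeR call for Plau. The ratio of Plat to Plau CPM was 0.445, 0.309 and 0.631 in PHx and 0.115, 0.0922 and 0.0770 in Sham. With Plat higher and Plau lower in all PHx libraries, these groups could not overlap, so the ratio adds no separate result. Plaur, the urokinase receptor and a gene also used by myeloid cells, had 37.0, 29.8 and 164 CPM in PHx and 42.8, 26.8 and 34.2 CPM in Sham. Only PHx 4 was high, which is also the library with the most neutrophil marker RNA. Without PHx 4 the log2 fold change of Plaur was -0.05, against 1.16 ± 0.73 with all libraries, and the part of neutrophils was not tested. Plg, for plasminogen itself, is a hepatocyte product and had 31.2, 9.22 and 36.3 CPM in PHx against 33.2, 41.4 and 32.9 CPM in Sham.

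**Figure D3:**
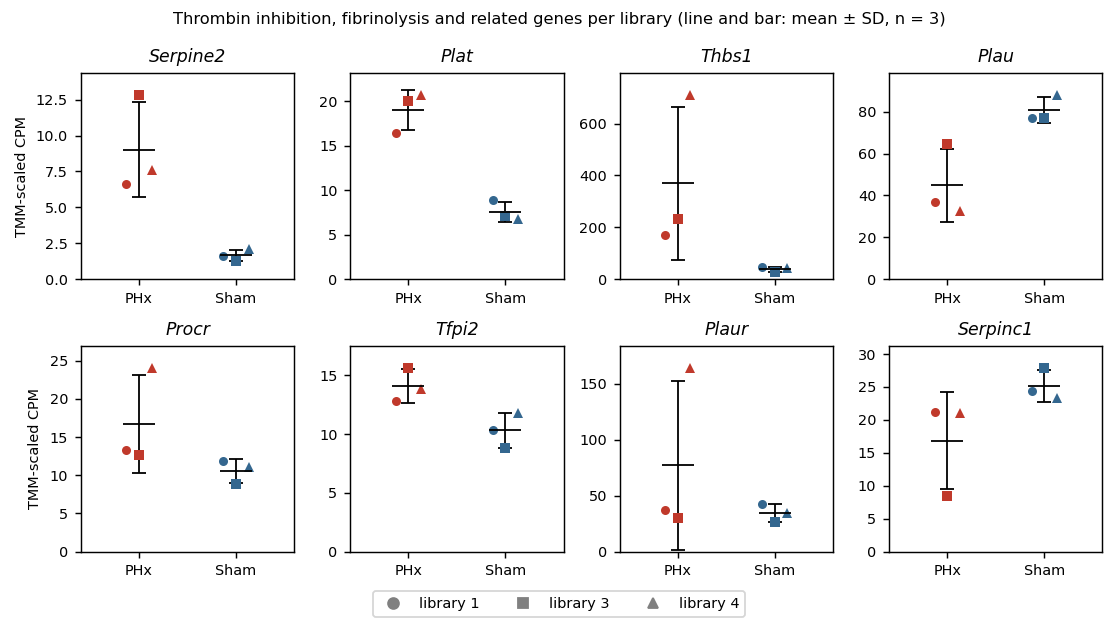
CPM of 8 genes in each library, PHx left of Sham, with marker shape for the library number and lines for mean ± SD of 3 libraries. Serpine2, Plat, Thbs1, Procr and Tfpi2 have all red points above the blue ones, Plau and Serpinc1 have them below, and Plaur is high in PHx 4 at 164 CPM.

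Among receptors and thrombospondin, Thbs1 had the largest change of the 35 genes. Thbs1 encodes thrombospondin, a matricellular protein of platelets and many stromal cells that binds fibrinogen and can activate latent TGF-beta. It stood at 169, 233 and 709 CPM in PHx and at 45.8, 26.2 and 42.8 CPM in Sham, so the groups were far apart and PHx 4 was highest. The log2 fold change was 3.28 ± 0.65, but the edgeR adjusted p was 0.128, while DESeq2 gave an adjusted p of 0.000197. Leaving out PHx 4 lowered the log2 fold change to 2.39 and brought the edgeR adjusted p to 0.0336. With PHx 1, PHx 3, Sham 1, Sham 3 or Sham 4 left out instead, the edgeR adjusted p was 0.128, 0.119, 0.358, 0.475 and 0.352. Summed over 8 platelet markers, the values were 94.8, 114 and 185 CPM in PHx and 156, 147 and 178 CPM in Sham. Clec1b made up most of that sum in every library, with 57.8, 85.9 and 104 CPM in PHx and 125, 125 and 155 CPM in Sham. The sum thus mainly followed that gene and is not a measure of platelet RNA. Every PHx library was below every Sham library for Clec1b, as for 9 of 10 sinusoidal endothelial markers. The cell source of Clec1b was not tested. Of the 7 tested platelet markers 0 were called by edgeR or DESeq2, and 1, Clec1b, was lower at p below 0.05 before adjustment (edgeR). The median log2 fold change of the 7 was 0.63, with 6 positive values. Itga2b, an integrin subunit of platelets, had 26.7, 17.3 and 68.4 CPM in PHx and 20.9, 13.6 and 12.6 CPM in Sham, so it too was highest in PHx 4, and its log2 fold change was 1.26 ± 0.54 (edgeR adjusted p = 0.414). Pf4, a platelet chemokine, averaged 3.17 ± 0.595 CPM in PHx and 2.58 ± 0.326 CPM in Sham. The summed stellate cell and fibroblast markers given above were also higher in all PHx libraries, and PHx 4 held the most neutrophil marker RNA. The part of platelet, stromal or neutrophil RNA in the level of Thbs1 was not tested.

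F2r had 577, 711 and 435 CPM in PHx and 727, 705 and 693 CPM in Sham. The Sham libraries lay close together, while PHx 1 and PHx 4 lay below them, and the log2 fold change was -0.30 ± 0.18. Summed over 10 general endothelial markers, levels were 12869, 15387 and 10039 CPM in PHx and 17868, 18269 and 17577 CPM in Sham. None of them was called by edgeR, with 4 lower at p below 0.05 before adjustment, and 1, Kdr, was called lower by DESeq2. F2rl1, a related receptor cleaved by trypsin-like proteases rather than thrombin, was scarce at 3.97 ± 0.389 CPM in PHx and 3.29 ± 1.21 CPM in Sham.

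The protein C system turns thrombin into an anticoagulant signal at the endothelial surface. Thbd, thrombomodulin, had 666, 599 and 918 CPM in PHx and 642, 562 and 375 CPM in Sham, groups that overlapped (log2 fold change 0.47 ± 0.24). Procr, the endothelial protein C receptor, had 13.3, 12.7 and 24.1 CPM in PHx and 11.9, 8.87 and 11.03 CPM in Sham. All PHx libraries lay above Sham, PHx 4 by the widest margin, but the log2 fold change of 0.65 ± 0.27 did not pass (edgeR adjusted p = 0.382). Without PHx 4 it was 0.29. Pros1, the cofactor protein S, had 402, 555 and 327 CPM in PHx and 474, 511 and 498 CPM in Sham. Proc, protein C itself, comes from hepatocytes and averaged 8.53 ± 3.26 CPM in PHx and 12.9 ± 3.03 CPM in Sham.

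For the start of coagulation, F3, which encodes tissue factor and is kept low in quiescent endothelium, averaged 7.33 ± 1.76 CPM in PHx and 4.59 ± 1.51 CPM in Sham, with overlap and a log2 fold change of 0.67 ± 0.31. Per length, F3 stood at 3.96 ± 0.989 RPKM in PHx and 2.41 ± 0.802 RPKM in Sham, and its inhibitor Tfpi at 62.1 ± 9.61 RPKM in PHx and 71.1 ± 1.53 RPKM in Sham. In CPM, Tfpi had 257, 330 and 242 CPM in PHx and 333, 313 and 326 CPM in Sham. PHx 1 and PHx 4 lay below the Sham libraries and PHx 3 among them. Tfpi2, a relative that inhibits plasmin and other proteases in the matrix, had 12.8, 15.6 and 13.8 CPM in PHx and 10.3, 8.80 and 11.8 CPM in Sham. Its groups did not overlap, but its log2 fold change of 0.45 ± 0.17 did not pass (edgeR adjusted p = 0.345). F7, the protease partner of tissue factor, averaged 1.75 ± 1.64 CPM in PHx and 1.16 ± 0.402 CPM in Sham.

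F8 encodes factor VIII, the cofactor that speeds activation of factor X. It had 1254, 1684 and 711 CPM in PHx and 1590, 1795 and 1796 CPM in Sham. PHx 4 was lowest, PHx 1 also lay below Sham, and PHx 3 fell within the Sham range, so the log2 fold change of -0.51 ± 0.29 did not pass (edgeR adjusted p = 0.504). Of 10 sinusoidal endothelial markers, 9 had every PHx library below Sham, 0 were called by edgeR, with 9 lower at p below 0.05 before adjustment, and 5 were called lower by DESeq2. Their sum was 17545, 23463 and 15298 CPM in PHx and 29698, 29052 and 27631 CPM in Sham, and their part in the level of F8 was not tested. Vwf, the carrier of factor VIII and a tether for platelets, had 1844, 762 and 1090 CPM in PHx and 1635, 1088 and 649 CPM in Sham. Libraries of both groups spread more than 2-fold in Vwf, and its log2 fold change of 0.13 ± 0.43 changed sign without PHx 1 (-0.29) or Sham 4 (-0.18). Ggcx, the carboxylase that completes vitamin K dependent factors, had 60.0, 69.6 and 37.7 CPM in PHx and 75.6, 58.2 and 62.0 CPM in Sham.

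Hepatocyte-derived genes were low in PHx 3. All 18 of them had their lowest level in that library, as did 12 of 16 hepatocyte markers outside the list, against 14.9% of all tested genes. Relative to the Sham mean, the median of the 18 genes on the log2 scale was -0.08, -1.43 and -0.02 in PHx 1, 3 and 4, and that of the 16 markers was -0.05, -1.26 and -0.50. The 16 markers summed to 1659.5, 779 and 1562 CPM in PHx and 1424, 2070 and 1823 CPM in Sham. Alb, the albumin gene, had 839, 442 and 849 CPM in PHx and 736, 1114 and 1066 CPM in Sham. The summed level of the 18 genes over that of the 16 markers was 0.250, 0.167 and 0.304 in PHx and 0.315, 0.218 and 0.209 in Sham, with overlap. Of the 18 genes 0 were called by edgeR or by DESeq2, and 1 was lower at p below 0.05 before adjustment (edgeR). Without PHx 3 the class median was -0.09, against -0.45 with all libraries, and with the mean of the hepatocyte markers as a covariate it was -0.04.

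**Figure D4:**
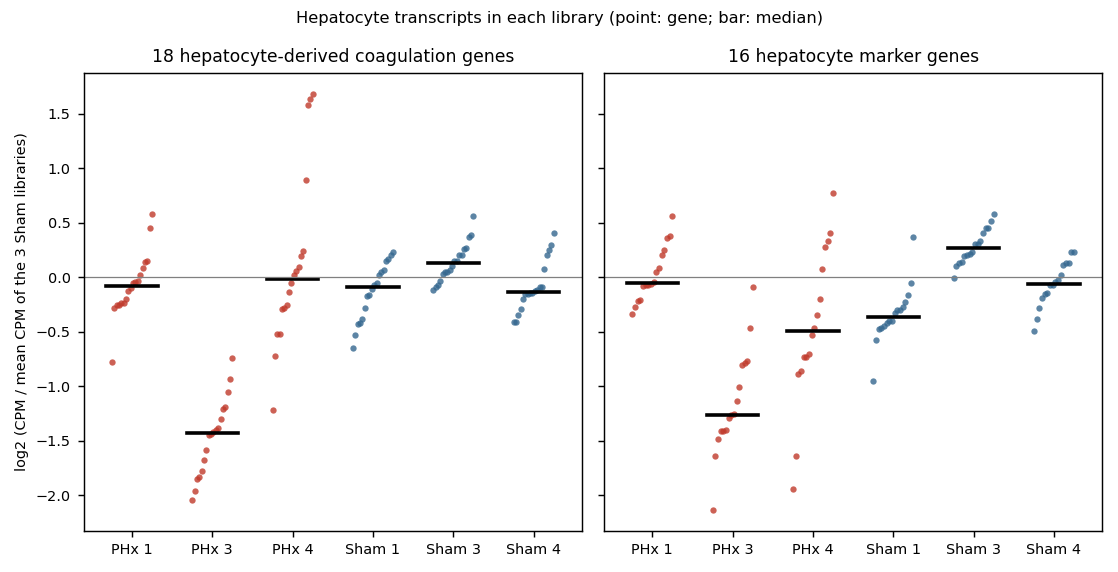
Log2 of each gene's CPM over its mean in the 3 Sham libraries, for the 18 hepatocyte-derived coagulation genes (left) and the 16 hepatocyte markers (right), per library with black bars at the median. Both panels drop in PHx 3, to medians of -1.43 and -1.26, and the 3 highest points of PHx 4 at left are F7, F10 and F5.

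The 3 fibrinogen chains had the highest RPKM of the hepatocyte-derived genes in both groups. Fga had 104, 26.5 and 108 CPM in PHx and 99.2, 98.6 and 85.4 CPM in Sham. Fgb had 77.7, 19.5 and 83.1 CPM in PHx and 94.2, 82.7 and 63.1 CPM in Sham. Fgg had 73.9, 21.3 and 69.8 CPM in PHx and 86.6, 74.9 and 69.0 CPM in Sham. In each chain PHx 3 stood alone at the bottom while PHx 1 and PHx 4 fell near the Sham libraries. The chains kept similar proportions: Fgb made up 40.8% ± 1.92 of the fibrinogen RPKM in PHx and 41.9% ± 2.63 in Sham, and Fga 27.6% ± 0.742 in PHx and 25.3% ± 1.68 in Sham (SD, n = 3). Fgg made up 31.6% ± 2.65 in PHx and 32.8% ± 1.54 in Sham. The Fga share was slightly higher in every PHx library (lowest 26.8%) than in any Sham library (highest 26.7%). The genes adjoin each other on chromosome 3, with 8619 bases between Fga and Fgb and 11097 between Fga and Fgg. Of the factor XIII subunits that cross-link fibrin, the carrier F13b averaged 1.19 ± 0.605 CPM in PHx and 1.34 ± 0.357 CPM in Sham. The catalytic F13a1, which also comes from macrophages and platelets, averaged 3.33 ± 1.26 CPM in PHx and 1.64 ± 0.658 CPM in Sham, with overlap (edgeR adjusted p = 0.380). Summed over 8 macrophage markers, levels were 208, 167 and 180 CPM in PHx and 513, 133 and 257 CPM in Sham, with 0 called by edgeR or DESeq2 and 0 at p below 0.05 before adjustment. These markers divided, with 6 negative and 2 positive log2 fold changes between -1.78 and 0.31. The part of macrophage RNA in the level of F13a1 was not tested.

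F2, prothrombin, had 22.2, 9.89 and 21.7 CPM in PHx and 27.3, 27.0 and 24.9 CPM in Sham. All PHx libraries lay below Sham, PHx 3 by the most, and the log2 fold change of -0.56 ± 0.29 did not pass (edgeR adjusted p = 0.478). Ckap5 overlaps F2 on the opposite strand with 413% of its mean count. F5 and F10, the cofactor and the protease that together make thrombin, were also read in each library. F5 had 10.3, 4.51 and 22.5 CPM in PHx and 7.16, 9.74 and 5.67 CPM in Sham, and F10 had 7.96, 3.91 and 24.0 CPM in PHx and 8.61, 7.06 and 6.79 CPM in Sham. Both were highest in PHx 4, the library rich in neutrophil markers, whose part was not tested. There F10 reached 0.0283 CPM per CPM of Alb, against 0.00948 and 0.00885 in PHx 1 and 3 and between 0.00634 and 0.0117 in Sham. Without PHx 4 the log2 fold changes of F5 and F10 were -0.026 and -0.33, against 0.72 and 0.68 with it. An antisense lncRNA, Gm16548, overlaps F5 with 137% of its mean count. F9, the protease of which factor VIII is the cofactor, was scarce at 1.81 ± 1.08 CPM in PHx and 2.03 ± 0.336 CPM in Sham.

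Contact factors start coagulation on charged surfaces. Kng1, kininogen, had 22.4, 7.19 and 42.6 CPM in PHx and 23.3, 25.5 and 20.01 CPM in Sham, with PHx 3 lowest and PHx 4 highest. Mice carry a close copy, Kng2, and reads of the pair may have been divided between them. F12 had a log2 fold change of -0.51 ± 0.43, F11 of -0.60 ± 0.48 and Klkb1, prekallikrein, of -0.79 ± 0.44. These genes were scarce, from 0.750 ± 0.240 CPM for F11 to 4.53 ± 2.32 CPM for F12 in PHx, and from 1.14 ± 0.472 to 6.45 ± 1.14 CPM in Sham.

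A further 35 genes of the pathway outside the list were read from the same fit, and 33 passed the filter. None was called by edgeR in either direction, 6 were higher and 0 lower at p below 0.05 before adjustment (7.93% and 4.73% of all tested genes), and 3 were called higher by DESeq2, with Serping1 and Serpinb2 among them. PHx libraries lay above Sham in 7 and below in 4 of the 33, against 10.6% and 9.96% of all tested genes. The median log2 fold change was 0.18, against 0.03 over all genes. Serping1, the inhibitor of contact and complement proteases, had 351, 224 and 680 CPM in PHx and 159, 109 and 89.3 CPM in Sham (edgeR adjusted p = 0.192).

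Smaller differences without overlap were seen in other genes of the pathway. Adamts13, the protease that trims von Willebrand factor, averaged 47.6 ± 9.0005 CPM in PHx and 29.9 ± 7.01 CPM in Sham. Anxa2, a surface receptor for Plat and plasminogen, averaged 276 ± 43.4 CPM in PHx and 206 ± 16.5 CPM in Sham. Cd9, a tetraspanin of platelets and other cells, averaged 184 ± 21.0 CPM in PHx and 137 ± 13.9 CPM in Sham, and Masp1, a complement protease that can also cleave coagulation factors, 977 ± 51.6 CPM in PHx and 857 ± 89.2 CPM in Sham. The Masp1 groups were barely apart, with PHx 1 at 944 CPM and Sham 1 at 943 CPM. Below Sham were Vkorc1, which recycles vitamin K, Lman1, which carries factors V and VIII out of the endoplasmic reticulum, Gas6, a vitamin K dependent ligand, and Anxa5, an anticoagulant annexin, with log2 fold changes of -0.27, -0.26, -0.45 and -0.25. None of these 8 passed (edgeR adjusted p between 0.235 and 0.582).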

How the data were processed

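The members and lists were chosen with earlier results of these data known. RNA of 6 libraries was read from the authors' deposited table of raw counts and RPKM per gene. Per the submitters' processing notes, TopHat2 2.0.13, bcl2fastq and mm10 (GRCm38) were used. How reads were counted, on which annotation and strand, is not given in the sources used here. The deposited RPKM was the count divided by the table's gene length and by the library's sum in 100% of values (relative tolerance 1e-06). Gene names turned into dates (27) were restored, and libraries differed by a chi-square per degree of freedom of at least 55.7.

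The deposited counts entered edgeR 4.0.16 (R 4.3.3) with TMM scaling, filterByExpr, robust quasi-likelihood F-tests and group as the only term, adjusted by Benjamini-Hochberg over 19033 genes. SE is the absolute log2 fold change over the square root of F. A count of 0 allows 3 counts, at most 0.0774 CPM, for counting error only. Simulated counts for those 19033 genes gave 17% recovery at a log2 size of 1 and 59% at 2, with 12 of 88 calls false.

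Every gene of the list is named, with the value in each library for those called, without overlap or averaging at least 20 CPM. Other pathway genes were named where the groups did not overlap at a mean of at least 5 CPM, and 1 such gene is not reported here. Serpinb2 was named after its value was seen. Alternatives were other scaling and filters, DESeq2 1.42.0, limma-voom 3.58.1, an adjusted p under 0.01, a replicate block, a hepatocyte covariate and each library left out. Proteins were not analysed here.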

Additional observations from a re-analysis of the deposited data

How the results depend on the processing

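Plat and Serpine2 had positive log2 fold changes in every fit run, and their calls held with upper-quartile or median-of-ratios factors, no filter on low counts, the filter of 5 CPM in 3 libraries and DESeq2. Serpine2 reached 5 CPM in PHx libraries only, so it passed that filter through the group where it was high. Its call under that filter is therefore no separate check. Counts of called members were 2 higher and 0 lower. They were 1 and 0 with limma-voom, 0 and 0 with the replicate block, with the hepatocyte covariate, at an adjusted p under 0.01 and without the libraries numbered 4, and 1 was lower with DESeq2. Leaving out each library gave 0 to 3 higher and 0 to 1 lower members. Over all genes the higher and lower counts were 161 and 3 in the main analysis, 359 and 30 with no filter, 721 and 126 with DESeq2, 14 and 1 with the replicate block, 15 and 0 with the hepatocyte covariate, 24 and 1 without the libraries numbered 4, 16 and 1 at an adjusted p under 0.01, and 0 to 160 and 0 to 9 with each library left out. Other pathway genes called higher numbered 0, against 1 with no filter, 3 with DESeq2 and 0 to 1 with each library left out. The endothelial median of 0.13 was 0.31 with the hepatocyte covariate, -0.07 without the libraries numbered 4, and -0.19 to 0.48 with each library left out. Fewer samples or a stricter threshold enter some of these settings. Elsewhere the cause was not tested.

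Uncalled genes changed sign. Kng1 (0.07) was at -0.26 with limma-voom, -0.24 with the replicate block and -0.73 without the libraries numbered 4, where F7 was at -0.25, Vwf at -0.071, F9 at 0.12, F10 at -0.41, F5 at -0.20 and Plaur at -0.063. With the hepatocyte covariate F9 was at 0.20, Fga at 0.18 and F13b at 0.37. Leaving out each library gave -0.50 to 1.02 for F7, -0.63 to 0.50 for Kng1, -0.29 to 0.48 for Vwf, -0.77 to 0.12 for F9, -0.33 to 1.09 for F10, -0.026 to 1.11 for F5, -0.53 to 0.16 for Fga, -0.44 to 0.19 for F13b, -0.011 to 0.50 for F2rl1 and -0.05 to 1.53 for Plaur. Deviations of same-numbered libraries from their group means correlated at -0.09, -0.23 and 0.03, so the numbers were not taken as pairs. With the replicate block the edgeR adjusted p was 0.133 for Plat and 0.141 for Serpine2. Genes under 5 CPM, such as F7 and F11, rest on few counts.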
